A study of Mus musculus with 6 samples.

Results

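The comparison set RNA of olfactory epithelium from a G9a KO mouse embryo against that from a G9a het embryo, both at E18.5, with 1 polyadenylated RNA library of each genotype. The G9a KO library was labelled a G9a knockout and the G9a het library a G9a heterozygote, so the second is not wild type. Both came from mice of a mixed background, chiefly C57/B6. The labels do not name the deleted part of the gene, whether a Cre line or other driver limited the deletion, the sex, or whether animals were pooled. The remaining embryonic libraries, a G9a/GLP dKO and a G9a KO GLP het, also lack G9a by their labels and are used only for side values. Genes at 1 FPKM or more (fragments per kilobase of transcript, scaled to the mapped fragments of the library) in either library were taken, which gave 15259 of the 22029 genes in the table. They held 216 of 1119 olfactory receptor (Olfr) genes, 86 very short RNAs that were left out because their FPKM is unstable, and 14957 other genes.

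G9a, encoded by Ehmt2, forms a complex with its relative GLP, encoded by Ehmt1, and places methyl groups on lysine 9 of histone H3, a mark of silent chromatin. In the olfactory epithelium each mature sensory neuron transcribes chiefly one allele of one receptor gene, while the other receptor genes carry silent-chromatin marks. Receptor transcripts start late in the life of the neuron, so receptor RNA in whole tissue also follows the number of mature neurons. The tissue further holds stem cells, immature neurons, sustentacular cells, Bowman glands and, in dissected embryos, pieces of neighbouring structures.

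With 1 library a side no test was possible and there is no replicate error, so what follows compares libraries and not genotypes. Beside the genotype, the libraries differed in sex markers. Xist, the RNA that coats the inactive X chromosome of females, was at 140 FPKM in the G9a KO library and 0.242 FPKM in the G9a het library. The Y-linked genes Eif2s3y and Ddx3y were at 0.195 and 0.0489 FPKM in the G9a KO library, against 42.9 and 33.6 FPKM in the G9a het library. Uty and Kdm5d, also Y-linked, were at 0.00544 and 0.00413 FPKM in the G9a KO library and at 9.86 and 7.04 FPKM in the G9a het library. Among the side libraries, Xist was at 0.272 FPKM in G9a KO GLP het and 208 FPKM in G9a/GLP dKO. Eif2s3y was at 27.7 FPKM in G9a KO GLP het and 0 FPKM in G9a/GLP dKO. By these markers G9a KO GLP het was like the G9a het library, and G9a/GLP dKO like the G9a KO library. Differences of genotype cannot be told apart here from those of sex, animal or dissection. The median log2 ratio of 507 X-linked genes was 0.03, against 0.02 for 14446 autosomal genes.

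Ehmt2 lies on chromosome 17 of build mm9, from 35035444 to 35050992, and its level was 30.2 FPKM in the G9a KO library and 24.5 FPKM in the G9a het library. Ehmt1 was at 20.8 FPKM in the G9a KO library and 17.3 FPKM in the G9a het library. The authors' intervals overlapped for both genes. Gene-level FPKM also counts transcript from outside a deleted part, so these values do not check the label.

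Most genes had like levels in the libraries. On log2(FPKM + 1), which understates the differences of low genes, 149 of 14957 genes were at least 2-fold higher in the G9a KO library (0.996%) and 152 were at least 2-fold lower (1.02%). The median log2 ratio, G9a KO over G9a het, was 0.02 and the central 90% of ratios ran from -0.53 to 0.53. The authors' intervals did not overlap for 80 genes higher in G9a KO (0.535%) and 106 lower (0.709%). The median half-width of those intervals was 75.1% of the FPKM in the G9a KO library and 73.8% in the G9a het library for genes at 1 to 2 FPKM. It was 31.6% in each for genes at 100 FPKM or more. Of the 149 higher genes, 74 reached 1 FPKM in the G9a KO library alone, and of the 152 lower genes, 51 reached it in the G9a het library alone. Such genes entered only through the library in which they were high. Among the 14224 genes at 1 FPKM or more in both libraries, 75 were at least 2-fold higher and 101 lower.

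**Figure D1:**
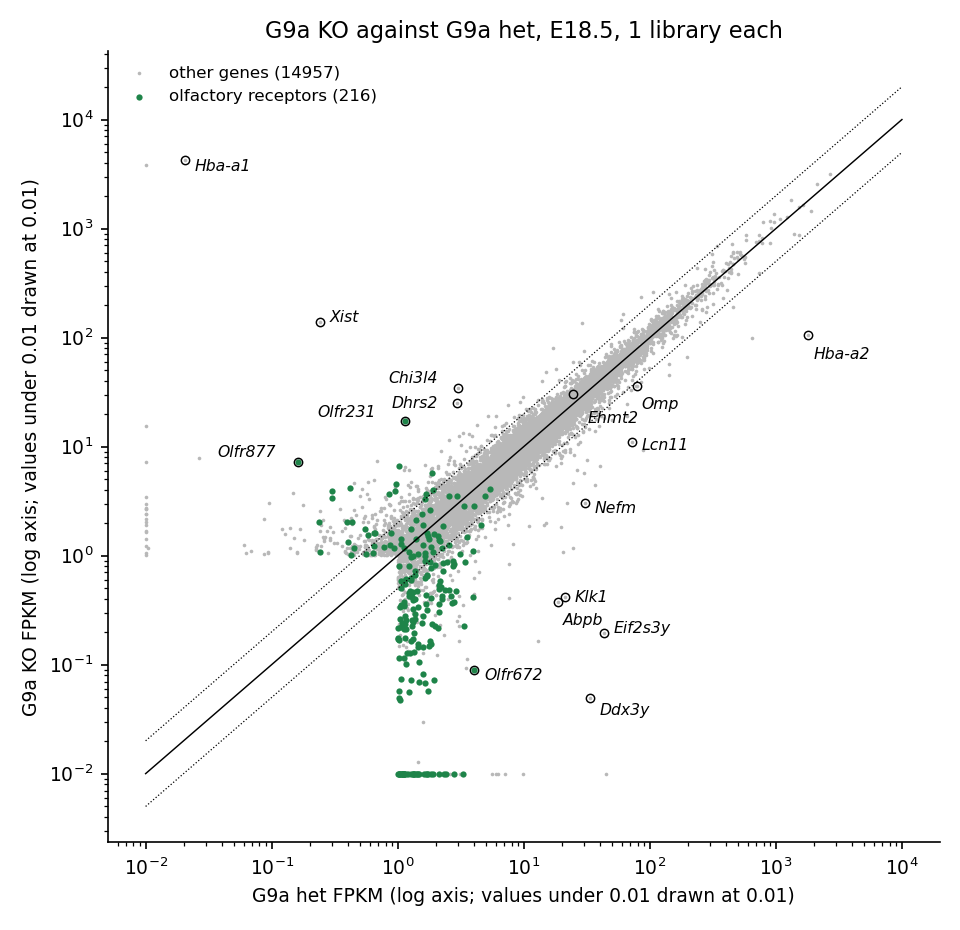
FPKM of each gene in the G9a KO library (vertical axis) against the G9a het library (horizontal axis), both on log axes, with 14957 other genes in grey, 216 olfactory receptors in green, equality as a solid line and 2-fold differences as dotted lines. Receptors lie mostly below the line and Olfr231 and Olfr877 above it, while 149 and 152 other genes lie beyond 2-fold above and below on log2(FPKM + 1); the grey point near Hba-a1 is AF357355, listed at 0 FPKM in the G9a het library.

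The receptor genes stood apart from that background. Of the 216 receptors, 139 were at least 2-fold lower in the G9a KO library (64.4%) and 23 at least 2-fold higher (10.6%), on log2(FPKM + 0.1), with a median log2 ratio of -1.71. The counts of other genes above used log2(FPKM + 1). On that scale 78 receptors were lower and 13 higher. On log2(FPKM + 0.1), 318 of the 14957 other genes were lower and 304 higher. The entry rule of the receptors fixes part of their split. In the G9a het library alone 149 receptors reached 1 FPKM, in the G9a KO library alone 25, and in both 42. Of those 42, 5 were at least 2-fold higher, 4 lower and 33 within 2-fold, with a median of -0.25. The count of receptors at 1 FPKM or more was thus 67 in the G9a KO library and 191 in the G9a het library, while at 5 FPKM or more it was 4 in the G9a KO library and 1 in the G9a het library. All 34 receptors among the 216 that were listed at 0 in one library were at 0 in G9a KO. An exact 0 in such a table may be an estimate that failed.

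Summed over all 1119 receptors, FPKM was 311 in the G9a KO library and 632 in the G9a het library, a ratio of 0.492. Mature neuron markers were also lower. Their geometric mean over 23 genes was 9.05 FPKM in the G9a KO library and 17.2 FPKM in the G9a het library, a ratio of 0.528. Receptor FPKM per unit of that mean was 34.3 in the G9a KO library and 36.8 in the G9a het library, a ratio of 0.932. In bulk tissue fewer mature neurons and less RNA per neuron cannot be told apart.

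The receptors with the highest level differed between the libraries. Of the 10 most abundant receptors in the G9a KO library, 9 were at least 2-fold higher there than in the G9a het library. Together those 10 summed to 61.3 FPKM in the G9a KO library and 14.1 FPKM in the G9a het library, while all other receptors summed to 249 FPKM in the G9a KO library and 618 FPKM in the G9a het library. Of the 10 most abundant receptors in the G9a het library, 6 were at least 2-fold lower in G9a KO, and 1 receptor, Olfr15, was in both sets of 10. Each set of 10 was ranked on these same values.

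Olfr231 (mm9 chromosome 1, 176047222 to 176048145) was at 17.1 FPKM in the G9a KO library and 1.15 FPKM in the G9a het library, with intervals of 4.73 to 17.2 and 0.090 to 2.16 FPKM. Olfr877 (chromosome 9, 37662405 to 37663340) was at 7.23 FPKM in the G9a KO library and 0.162 FPKM in the G9a het library. Olfr433 (chromosome 1, 175972064 to 175973067) was at 3.89 FPKM in the G9a KO library and 0.30 FPKM in the G9a het library. These 3 were the only receptors at least 2-fold higher whose intervals did not overlap, against 47 that were lower by the same demand. In the remaining embryonic libraries Olfr231 was at 12.1 FPKM in G9a KO GLP het and 94.6 FPKM in G9a/GLP dKO, and Olfr877 at 8.49 and 3.57 FPKM in the same libraries. Low receptor values lay in blurred steps, from which 1 FPKM over 1 kb was estimated as about 12.8 fragments in the G9a KO library and 13.1 fragments in the G9a het library. The steps were weak, with a score of 0.237 in G9a KO and 0.139 in G9a het, where clean steps would give 1. Fragment numbers are therefore rough. On that estimate Olfr231 had 203 fragments in G9a KO and 14 in G9a het, and Olfr877 had 87 in G9a KO and 2 in G9a het. By this rough estimate the G9a KO values of these 2 receptors rest on many fragments, while Olfr433 had about 50 in G9a KO and 4 in G9a het.

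Of the 6 receptors on chromosome 1 that were at least 2-fold higher, 5 were neighbours. From Olfr433 to Olfr419, 9 receptors lie within 209 kb, and 8 of them were higher in the G9a KO library, 5 of the 5 at 1 FPKM or more by at least 2-fold. Their summed FPKM was 32.5 in G9a KO and 5.63 in G9a het, a ratio of 5.77, while the other 18 chromosome 1 receptors summed to 9.29 FPKM in G9a KO and 7.90 FPKM in G9a het. The same 9 genes summed to 18.7 FPKM in G9a KO GLP het and 142 FPKM in G9a/GLP dKO. Olfr231 made up much of these sums. It alone was at 17.1 FPKM in G9a KO, 12.1 FPKM in G9a KO GLP het and 94.6 FPKM in G9a/GLP dKO. In G9a KO GLP het, Olfr420, Olfr424 and Olfr432 were below G9a het and the others of the stretch above it. The stretch was drawn after its values were seen. Olfr419 was at 3.88 FPKM in the G9a KO library and 0.948 FPKM in the G9a het library. Olfr420 was at 3.65 FPKM in the G9a KO library and 1.67 FPKM in the G9a het library. The exception within the stretch was Olfr424, at 0.188 FPKM in G9a KO and 0.418 FPKM in G9a het. Outside the stretch, Olfr1406 was also at least 2-fold higher, at 3.39 FPKM in G9a KO and 0.301 FPKM in G9a het. It is part of the sum of the other 18. Olfr414 was at 0.0635 FPKM in G9a KO and 0.460 FPKM in G9a het, and Olfr220 at 0.265 FPKM in G9a KO and 1.04 FPKM in G9a het.

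**Figure D2:**
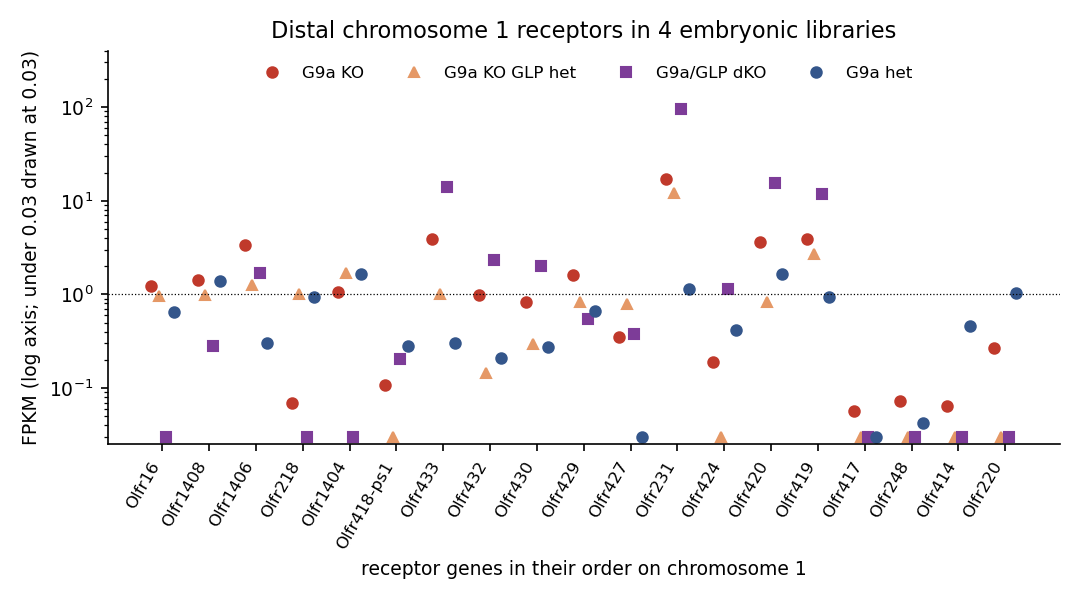
FPKM (log axis) of 19 receptor genes in their order on distal chromosome 1 in the G9a KO, G9a KO GLP het, G9a/GLP dKO and G9a het libraries, 1 point a library. From Olfr433 to Olfr419 the G9a KO point lies above the G9a het point for 8 of 9 genes, and Olfr231 is the highest at 17.1 FPKM in G9a KO and 1.15 FPKM in G9a het.

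Windows at the recorded starts of receptors in that stretch, and of Olfr877, are shown because these genes were higher while most of the family was lower. They are RefSeq sequences of build GRCm38.p6, from 250 bases before to 50 bases after the recorded start, 5′ to 3′ on the gene's strand. The last 50 bases of the Olfr877 window begin with ATG, so its recorded start may be that of the coding part. Such a window need not hold the promoter. Olfr433 is at chr1:174041683-174041982 (plus strand), Olfr420 at chr1:174158472-174158771 (plus), Olfr419 at chr1:174250927-174251226 (minus) and Olfr877 at chr9:37854570-37854869 (plus). Capitals mark matches on either strand to TAATTA, a core that homeodomain proteins bind, or TATAAA, and overlapping matches were all counted. Of the 216 receptors, 182 had a window. Olfr231 is named only.
Olfr433: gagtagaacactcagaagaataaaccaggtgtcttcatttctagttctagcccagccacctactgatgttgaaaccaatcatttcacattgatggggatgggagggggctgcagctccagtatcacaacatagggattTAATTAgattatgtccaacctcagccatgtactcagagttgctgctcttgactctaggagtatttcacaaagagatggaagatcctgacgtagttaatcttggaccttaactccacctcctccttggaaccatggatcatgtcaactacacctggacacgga
Olfr420: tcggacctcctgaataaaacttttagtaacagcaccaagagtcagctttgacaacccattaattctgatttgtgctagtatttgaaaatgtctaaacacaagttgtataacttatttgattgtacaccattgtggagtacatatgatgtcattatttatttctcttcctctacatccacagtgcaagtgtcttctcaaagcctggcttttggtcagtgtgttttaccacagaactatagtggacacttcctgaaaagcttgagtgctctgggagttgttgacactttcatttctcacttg
Olfr419: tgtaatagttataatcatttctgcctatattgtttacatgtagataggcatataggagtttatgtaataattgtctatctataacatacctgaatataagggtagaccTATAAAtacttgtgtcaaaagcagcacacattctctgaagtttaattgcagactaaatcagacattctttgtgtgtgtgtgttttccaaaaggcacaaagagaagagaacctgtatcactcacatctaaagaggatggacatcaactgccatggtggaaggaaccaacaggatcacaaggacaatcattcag
Olfr877: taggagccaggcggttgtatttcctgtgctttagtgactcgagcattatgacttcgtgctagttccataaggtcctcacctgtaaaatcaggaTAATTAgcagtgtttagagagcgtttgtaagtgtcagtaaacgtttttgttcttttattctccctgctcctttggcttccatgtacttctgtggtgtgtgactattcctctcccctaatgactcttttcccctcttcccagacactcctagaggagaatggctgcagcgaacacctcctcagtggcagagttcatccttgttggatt

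The shares below describe windows at recorded starts, which need not be promoters. TAATTA occurred in 18.6% of 944 receptor windows and in 5.31% of 27025 windows of all genes. It was in 3 of the 20 windows of receptors at least 2-fold higher (15%) and in 18 of the 119 windows of receptors at least 2-fold lower (15.1%). TATAAA occurred in 41.1% of receptor windows and 14.2% of all windows, and in 9 of the 20 higher (45%) and 44 of the 119 lower receptors (37%). CCCNNGGG, the palindrome core bound by Ebf proteins, was in 3.07% of receptor windows and 13.4% of all windows, in 0 of the 20 and 4 of the 119.

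By chromosome, the receptor sum was lower in the G9a KO library on most, to unequal degrees. On chromosome 2, with 290 receptors, it was 34.7 FPKM in G9a KO and 141 FPKM in G9a het, a ratio of 0.246, and none of its 42 receptors at 1 FPKM or more was 2-fold higher. On chromosome 7 it was 80.2 FPKM in G9a KO and 174 FPKM in G9a het, and on chromosome 9 it was 32.6 FPKM in G9a KO and 77.2 FPKM in G9a het. Among the 216 receptors, 35 of 42 on chromosome 2, 45 of 65 on chromosome 7 and 22 of 27 on chromosome 9 were at least 2-fold lower, where 64.4% of all were. These chromosomes also hold the most receptors. Sums were near each other on chromosome 11, at 28.2 FPKM in G9a KO and 33.3 FPKM in G9a het, and on chromosome 13, at 11.3 FPKM in G9a KO and 12.5 FPKM in G9a het. On chromosome 1 the order turned, at 41.8 FPKM in G9a KO and 13.5 FPKM in G9a het. Sums were also higher in G9a KO on 3 chromosomes with few receptors. They were 1.61 against 0.766 FPKM in G9a het on chromosome 3 (2 receptors) and 4.01 against 3.85 FPKM on chromosome 8 (5 receptors). On chromosome 15 (9 receptors) they were 2.56 against 2.48 FPKM.

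**Figure D3:**
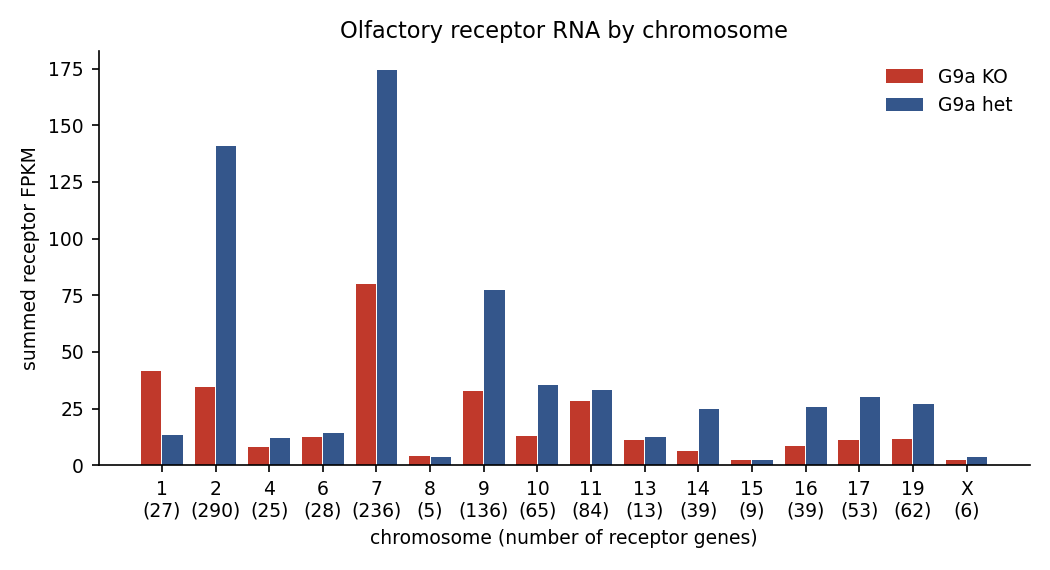
Summed receptor FPKM by chromosome in the G9a KO library (left bar) and the G9a het library (right bar), with the number of receptor genes in brackets, for chromosomes with 5 or more. Chromosome 2 shows 34.7 FPKM in G9a KO against 141 FPKM in G9a het, and chromosome 1 the opposite order, 41.8 against 13.5 FPKM.

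Among clusters of 5 or more receptors, split where genes lay over 1 Mb apart, the lowest ratio was that of the 28 genes from Olfr172 to Olfr209 on chromosome 16, with 0.935 FPKM in G9a KO and 12.4 FPKM in G9a het. The large chromosome 2 cluster of 225 receptors had 29.3 FPKM in G9a KO and 123 FPKM in G9a het. The class I cluster of chromosome 7, whose 124 receptors resemble those of fish, had 37.8 FPKM in G9a KO and 106 FPKM in G9a het. The next cluster along, of 66 class II receptors from Olfr693 to Olfr519, had 28.7 FPKM in G9a KO and 35.7 FPKM in G9a het. The highest ratio, 3.25, was that of the distal chromosome 1 cluster.

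Of the lower receptors, Olfr672 (chromosome 7, 112144478 to 112145416) was at 0.0901 FPKM in the G9a KO library and 4.03 FPKM in the G9a het library, about 1 and 50 fragments. Olfr745 (chromosome 14) was at 0.419 FPKM in G9a KO and 3.95 FPKM in G9a het, and Olfr969 (chromosome 9) at 0.228 FPKM in G9a KO and 3.34 FPKM in G9a het. Of the 47 lower receptors whose intervals did not overlap, 34 were listed at 0 in G9a KO with an interval of 0 to 0. The other 13 were above 0 in both libraries, and Olfr536 had the highest G9a KO value among them, at 0.478 FPKM in G9a KO and 2.91 FPKM in G9a het. Among the higher receptors, Olfr510 was at 6.69 FPKM in G9a KO and 1.02 FPKM in G9a het, Olfr446 at 4.21 FPKM in G9a KO and 0.416 FPKM in G9a het, and Olfr464 at 4.56 FPKM in G9a KO and 0.962 FPKM in G9a het, with intervals that overlapped. Olfr15 was at 4.06 FPKM in G9a KO and 5.38 FPKM in G9a het. Near-identical receptors are uncertain, since no source used here says how reads that match several genes were treated.

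Genes of the mature sensory neuron were lower in the G9a KO library. All 23 had a log2 ratio below 0 and their median was -0.69. At least 2-fold lower were 8 of the 23, where 1.02% of all genes were. Omp, the olfactory marker protein, was at 36.0 FPKM in G9a KO and 78.6 FPKM in G9a het. Gnal, the G protein that odorant receptors activate, was at 18.3 FPKM in G9a KO and 43.5 FPKM in G9a het. Kirrel2, an adhesion molecule of sorting olfactory axons, was at 3.39 FPKM in G9a KO and 14.0 FPKM in G9a het. For Omp, Gnal and Kirrel2 the intervals did not overlap. Omp and Gnal share a locus entry with another gene, so reads where genes overlap could have been split.

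Odorant transduction genes overlap with that list, which holds 11 of the 18. Of the 18, 3 were at least 2-fold lower and none higher, with a median of -0.46, and all 3 are among the 8 lower genes already counted. Besides Gnal these were Pde1c, a phosphodiesterase that breaks down cyclic AMP, at 4.32 FPKM in G9a KO and 11.1 FPKM in G9a het, and Ano2, a calcium-activated chloride channel, at 3.01 FPKM in G9a KO and 7.78 FPKM in G9a het. Cnga2, a subunit of the cyclic nucleotide-gated channel, was at 11.4 FPKM in G9a KO and 19 FPKM in G9a het, with overlapping intervals. Calb2, calretinin, had the smallest difference of the mature list, at 58.6 FPKM in G9a KO and 60.7 FPKM in G9a het. Among 17 receptor trafficking and feedback genes none passed 2-fold. Lhx2, a regulator of receptor choice, was at 50.2 FPKM in G9a KO and 56.1 FPKM in G9a het, and Ebf2, of a family that binds receptor promoters, at 22.3 FPKM in G9a KO and 38.8 FPKM in G9a het. Of 19 axon sorting genes 2 were 2-fold lower, Kirrel2, already counted above, and the contactin Cntn4, at 14.6 FPKM in G9a KO and 32.7 FPKM in G9a het.

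Lists of earlier stages had medians near that of all genes or above it. None of 21 immature neuron genes passed 2-fold in either direction, with a median of 0.15, and none of 18 stem and progenitor genes, with a median of 0.06. Gap43, a growth cone protein of young axons, was at 92.8 FPKM in G9a KO and 92.3 FPKM in G9a het. Forebrain neurons also express several immature neuron genes, and forebrain markers were higher in G9a KO, with a median of 0.54 over 23 genes. In the G9a KO GLP het library, where the forebrain genes Neurod6, Tbr1 and Neurod2 were at 0 to 0.287 FPKM, Gap43 was at 38.6 FPKM. Stmn2, a microtubule regulator of growing axons, was at 95.7 FPKM in G9a KO, 35.6 FPKM in G9a KO GLP het and 96.7 FPKM in G9a het. In G9a/GLP dKO, Gap43 was at 89.1 FPKM and Stmn2 at 80.6 FPKM. Neurod6, Tbr1 and Neurod2 were at 3.51, 16.3 and 1.71 FPKM in that library, and at 7.48, 5.16 and 3.27 FPKM in G9a het. The part of forebrain RNA in the level of the immature neuron genes was not tested. Krt5, a keratin of basal cells, was at 376 FPKM in G9a KO and 297 FPKM in G9a het. Of 29 proliferation genes 28 were above 0 and none passed 2-fold, with a median of 0.22, where 52.9% of all genes were above 0.

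**Figure D4:**
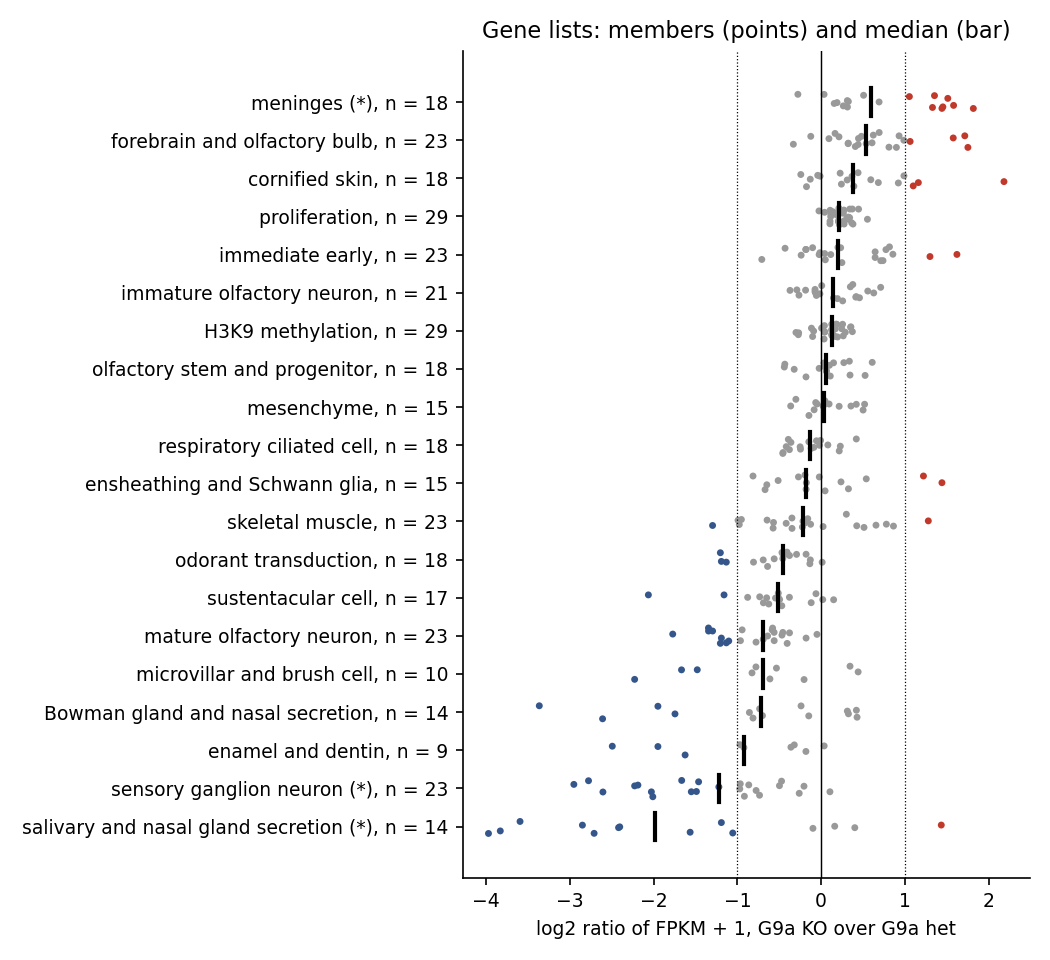
Log2 ratio of FPKM + 1, G9a KO over G9a het, for the members (points) and the median (bar) of 20 gene lists, with dotted lines at 2-fold, red points at least 2-fold higher and blue points at least 2-fold lower in G9a KO. Medians run from -1.99 for salivary and nasal gland secretion to 0.60 for meninges, and lists marked (*) were chosen after their values were seen.

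Supporting and glandular cells were also lower for some genes. Of 17 sustentacular genes 2 were 2-fold lower, with a median of -0.51: Sult1c1, a sulfotransferase, at 1.89 FPKM in G9a KO and 11.1 FPKM in G9a het, and Fmo2, a flavin monooxygenase, at 8.94 FPKM in G9a KO and 21.2 FPKM in G9a het. The abundant cytochrome Cyp2f2 was at 202 FPKM in G9a KO and 318 FPKM in G9a het. Of 14 Bowman gland and nasal secretion genes 10 lay below 0 and 4 above, with a median of -0.72. Those above 0 were Ltf, Sox10, Muc5ac and Dmbt1, with Ltf at 58.9 FPKM in G9a KO and 47.2 FPKM in G9a het. At least 2-fold lower were 4 of the 14, and none was 2-fold higher. Among the 4 lower genes, Odam, at 7.51 FPKM in G9a KO and 31.9 FPKM in G9a het, is also in the enamel list. Genes of the enamel list were mostly lower too. Lcn11, a lipocalin, was at 10.9 FPKM in G9a KO and 71.9 FPKM in G9a het. Gpx6, a glutathione peroxidase of olfactory tissue, was at 1.08 FPKM in G9a KO and 20.5 FPKM in G9a het, and the secretoglobin Scgb1c1 at 19.1 FPKM in G9a KO and 66.3 FPKM in G9a het. The 4 lower gland genes were below G9a het in both other embryonic libraries as well, with Lcn11 at 0.590 FPKM in G9a KO GLP het and 0.221 FPKM in G9a/GLP dKO. Sult1c1 was not, at 26.1 FPKM in G9a KO GLP het and 0.991 FPKM in G9a/GLP dKO.

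Of 10 microvillar and brush cell genes 3 were 2-fold lower, with a median of -0.70, among them Avil, which the sensory ganglion list also holds, and Coch at 8.42 FPKM in G9a KO and 25.3 FPKM in G9a het. Trpm5, the defining channel of brush-like cells, was at 2.96 FPKM in G9a KO and 2.12 FPKM in G9a het. None of 18 ciliated cell genes passed 2-fold, with a median of -0.13. Secreted proteins of salivary and nasal glands had the lowest ratios of the named autosomal genes after Hba-a2. Klk1, tissue kallikrein, was at 0.414 FPKM in G9a KO and 21.2 FPKM in G9a het, Abpb, an androgen-binding protein, at 0.374 FPKM in G9a KO and 18.6 FPKM in G9a het, and Bpil3 at 0.164 FPKM in G9a KO and 13.1 FPKM in G9a het. A list of such genes, chosen after its values were seen, had 10 of 14 members 2-fold lower and 1 higher. The exception was Dcpp2, at 4.26 FPKM in G9a KO and 0.946 FPKM in G9a het, while Amy1, Smr3a and Dcpp1 were within 2-fold.

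Genes of cells from outside the epithelium differed in both directions. Of 23 forebrain and olfactory bulb genes, 21 were above 0, 4 at least 2-fold higher and none lower, with a median of 0.54 and a summed FPKM of 256 in G9a KO and 166 in G9a het. Neurod2, Neurod6 and Tbr1 are transcription factors of cortical projection neurons. Neurod6 was at 24.3 FPKM in G9a KO and 7.48 FPKM in G9a het, Tbr1 at 19.2 FPKM in G9a KO and 5.16 FPKM in G9a het, and Neurod2 at 13.4 FPKM in G9a KO and 3.27 FPKM in G9a het. Their intervals did not overlap. In the G9a KO GLP het library Neurod6 was listed at 0, with Tbr1 at 0.287 FPKM and Neurod2 at 0.0927 FPKM. In the G9a/GLP dKO library the 3 genes were at 3.51, 16.3 and 1.71 FPKM, so these levels varied among the G9a-null libraries.

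Fabp7, a fatty acid-binding protein of radial and ensheathing glia, was at 234 FPKM in G9a KO and 85.4 FPKM in G9a het, each just below its own interval. Of 15 ensheathing and Schwann glia genes it and Npy were 2-fold higher, and the list median was -0.18. A list of meningeal genes, chosen after its values were seen, had 8 of 18 members 2-fold higher, none lower and a median of 0.60. Slc6a13, a GABA and taurine carrier, was at 11.5 FPKM in G9a KO and 2.56 FPKM in G9a het. Ptgds, the prostaglandin D synthase of the meninges, was at 51.0 FPKM in G9a KO and 18 FPKM in G9a het. The choroid plexus marker Ttr went the other way, at 24.7 FPKM in G9a KO and 65.6 FPKM in G9a het. The part of such tissue in the neuronal and receptor differences was not tested.

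Genes of sensory ganglion neurons were much lower in the G9a KO library. In a list chosen after its values were seen, 12 of 23 members were 2-fold lower and none higher, with a median of -1.22 and a summed FPKM of 101 in G9a KO and 285 in G9a het. The neurofilament genes Nefl, Nefm and Nefh were at 4.46, 3.04 and 0.410 FPKM in G9a KO and at 36.5, 30.3 and 7.59 FPKM in G9a het, with the G9a het values of Nefm and Nefh below their own intervals. P2rx3, an ATP receptor of pain fibres, was at 1.27 FPKM in G9a KO and 8.15 FPKM in G9a het, and Scn10a, a sodium channel of the same cells, at 0.0932 FPKM in G9a KO and 3.46 FPKM in G9a het. Prph, peripherin, was at 17.5 FPKM in G9a KO and 50.1 FPKM in G9a het. Nefl was at 19.8 FPKM in G9a/GLP dKO and 2.40 FPKM in G9a KO GLP het. Scn9a, one of the mature neuron list, is also known from such ganglia and was at 6.68 FPKM in G9a KO and 17.9 FPKM in G9a het.

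**Figure D5:**
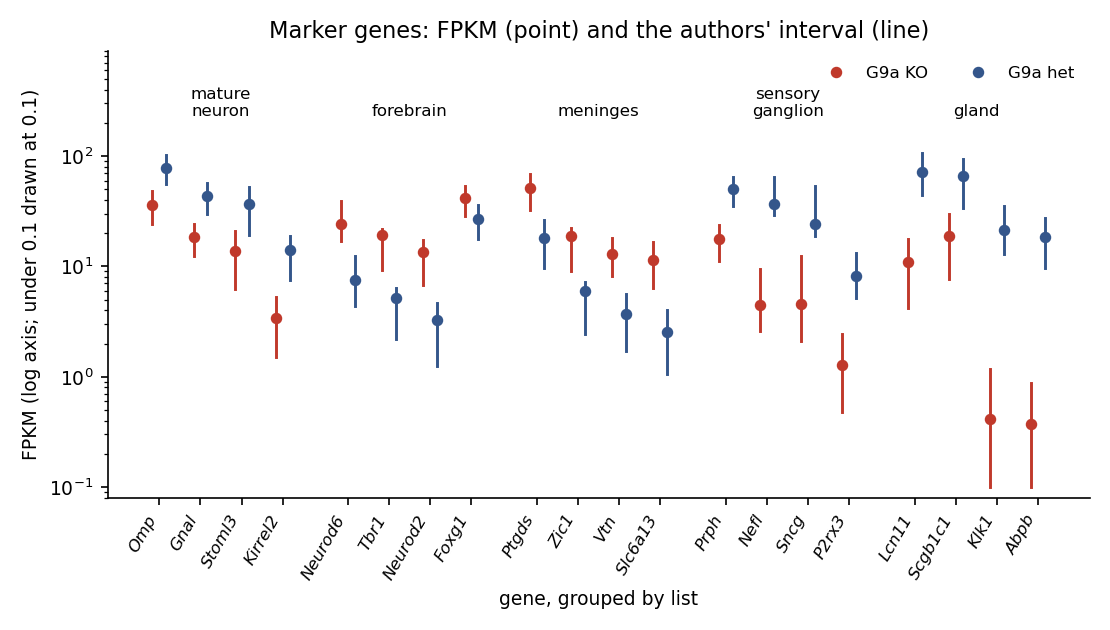
FPKM (points, log axis) and the authors' intervals (lines) of 20 genes from the mature neuron, forebrain, meninges, sensory ganglion and gland lists, in the G9a KO library (left) and the G9a het library (right). The forebrain and meningeal genes drawn lie higher in G9a KO (Neurod2 at 13.4 against 3.27 FPKM). The mature neuron, ganglion and gland genes drawn lie lower (Omp at 36.0 against 78.6 FPKM). These genes are a selection, and some forebrain and gland genes not drawn go the other way. The meninges, sensory ganglion and salivary lists were chosen after their values were seen.

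Teeth and skin also differed. Of 9 enamel and dentin genes 3 were 2-fold lower and none higher, with a median of -0.92, and Odam is counted here and among the Bowman gland genes. Ambn, ameloblastin, was at 45.1 FPKM in G9a KO and 141 FPKM in G9a het, and Amelx, amelogenin, at 388 FPKM in G9a KO and 737 FPKM in G9a het. Of 18 cornified skin genes 3 were 2-fold higher and none lower, with a median of 0.38. Stfa3, a stefin of the cystatin family, was at 135 FPKM in G9a KO and 28.9 FPKM in G9a het, while Krt1, a keratin of upper skin layers, was at 589 FPKM in G9a KO and 311 FPKM in G9a het with overlapping intervals. Krt16, a keratin of activated skin, was at 15.9 FPKM in G9a KO and 4.28 FPKM in G9a het. The medians of the mesenchyme (15 genes), cartilage (15) and bone (13) lists were 0.04, 0.10 and -0.29, and no member passed 2-fold. Of 23 skeletal muscle genes 1 was 2-fold higher and 1 lower, with a median of -0.22: the light chain Myl1, at 146 FPKM in G9a KO and 59.6 FPKM in G9a het, and the perinatal heavy chain Myh8, at 56.9 FPKM in G9a KO and 141 FPKM in G9a het.

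The haemoglobin genes show a limit of the deposited values. Hba-a1 was at 4218 FPKM in G9a KO and 0.0205 FPKM in G9a het, while its copy Hba-a2 was at 106 FPKM in G9a KO and 1805 FPKM in G9a het. The copies share 1 locus entry, and their sum was 4324 FPKM in G9a KO and 1805 FPKM in G9a het, a ratio of 2.40. Hbb-b2, an adult beta globin, was at 166 FPKM in G9a KO and 61.3 FPKM in G9a het, and Alas2, of haem synthesis in red cells, at 39.3 FPKM in G9a KO and 21.2 FPKM in G9a het. Of 8 red cell genes 7 were above 0 and 3 at least 2-fold higher, with 1 lower, Hba-a2. Pisd-ps1, among the 15 highest ratios, and Rpl26, among the 15 lowest, also shared a locus entry. Rpl26 was at 9.28 FPKM in G9a KO and 88.8 FPKM in G9a het. The 3 Pisd pseudogenes summed to 18.3 FPKM in G9a KO and 39.3 FPKM in G9a het, opposite to Pisd-ps1 alone at 7.28 FPKM in G9a KO and 0.00945 FPKM in G9a het. In all, 50 of the 301 genes beyond 2-fold shared a locus entry.

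The other named genes with the highest ratios were enzymes and secreted proteins. Chi3l4, a chitinase-like protein, was at 34.8 FPKM in G9a KO and 3.03 FPKM in G9a het. Dhrs2, a short-chain dehydrogenase, was at 24.9 FPKM in G9a KO and 2.95 FPKM in G9a het, and it was also at 57.1 FPKM in G9a KO GLP het and 20.04 FPKM in G9a/GLP dKO. Akr1c13, an aldo-keto reductase, was at 7.32 FPKM in G9a KO and 0.684 FPKM in G9a het. Scgb3a1, a secretoglobin of airways, was at 80.5 FPKM in G9a KO and 17.1 FPKM in G9a het. Bhlhe22, a transcription factor of cortical and other neurons, was at 9.10 FPKM in G9a KO and 2.21 FPKM in G9a het. For Dhrs2 and Akr1c13 all 3 libraries without G9a lay above the G9a het library, the last at 3.36 FPKM in G9a KO GLP het and 5.59 FPKM in G9a/GLP dKO. Among the lowest, Sult1e1, estrogen sulfotransferase, was at 1.84 FPKM in G9a KO and 19.9 FPKM in G9a het, with 1.3 FPKM in G9a KO GLP het and 1.67 FPKM in G9a/GLP dKO.

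Chromatin and other regulatory lists differed little. Of 29 genes of H3K9 methylation none passed 2-fold, 23 were above 0 and the median was 0.13. Of 10 genes of H4K20 methylation and the nuclear envelope none passed 2-fold, with a median of 0.08. Of 25 germline genes that H3K9 methylation is known to silence in other mouse cells, 3 reached 1 FPKM in either library and none of these passed 2-fold. Sycp3, of the meiotic chromosome axis, was at 0.682 FPKM in G9a KO and 1.89 FPKM in G9a het, and the 25 genes summed to 6.75 FPKM in G9a KO and 10.3 FPKM in G9a het. Of 45 imprinted genes 1 was 2-fold higher and none lower, with a median of 0.06. It was Nnat, neuronatin, at 260 FPKM in G9a KO and 105 FPKM in G9a het, a gene that forebrain also expresses.

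Of 23 immediate early genes 2 were 2-fold higher and none lower, with a median of 0.20. Fos was at 48.0 FPKM in G9a KO and 14.9 FPKM in G9a het, and Cyr61 at 74.9 FPKM in G9a KO and 29.8 FPKM in G9a het, both with intervals that did not overlap. Fos was at 8.42 FPKM in G9a/GLP dKO and 6.38 FPKM in G9a KO GLP het, so its level was not shared by the G9a-null libraries. No member of the unfolded protein response list (24 genes, median 0.01), the endothelium list (10, 0.13) or the myeloid list (16, -0.08) passed 2-fold. Of 51 clustered protocadherins 2 were 2-fold lower and 40 lay below 0, with a median of -0.30, but all 51 share a locus entry and their intervals overlapped. Of 38 histone genes 2 were 2-fold higher and 1 lower, with a median of 0.23. Of 327 vomeronasal receptors 7 reached 1 FPKM in either library, at 2.16 FPKM at most. On log2(FPKM + 1), 3 of them were at least 2-fold higher and 1 lower, where 0.996% and 1.02% of all genes were. At such levels a gene passes 2-fold only if its other library is under 1 FPKM. Each of these receptors thus entered only through the library in which it was high. The 6 genes of vomeronasal neurons had a median of 0.20 and none passed 2-fold, nor did any of 3 necklace neuron genes or 5 Ms4a genes. None of the 15 trace amine receptors reached 1 FPKM, with a highest value of 0.531 FPKM in G9a KO and 0.947 FPKM in G9a het.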

How the data were processed

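Polyadenylated RNA libraries were made with the ScriptSeq V2 kit, per the labels' protocols, and processed with TopHat, Cufflinks and Cuffdiff on mouse build mm9, per the submitters' processing notes. Not given in the sources used here are the versions, the annotation, the total depth and the level of the interval. Per the file headers, the authors deposited FPKM per gene with the bounds of an interval. Some FPKM lay outside their own interval, 312 in G9a KO and 277 in G9a het. Groups came from the labels.

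Log2 ratios were computed in Python 3.11.15 with pseudocounts of 1 (receptors 0.1), and counts were taken beyond 2-fold. Short RNAs, such as microRNAs and small nucleolar RNAs, were left out by their symbols. Scripts were tested on simulated data. The members and lists were chosen with earlier results of these data known. Named genes were Ehmt2, Ehmt1, the 15 highest and 15 lowest ratios among named genes (predicted loci left out) at 5 FPKM or more, above 0 in both libraries and with intervals that did not overlap, receptors 2-fold apart by the same demand, the 10 most abundant receptors of each library and up to 6 members of each list. Outside this rule, and picked with their values in view, were the chromosome 1 neighbours, AF357355, the members of the lists chosen later and the genes named for their place beside these. The size of 1 fragment was the best step of a periodogram of low receptor values. Coordinates are those of the table on mm9, written from 1, except those of the sequence windows. Some genes that this rule names are not reported here.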

Additional observations from a re-analysis of the deposited data

How the results depend on the processing

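Counts beyond 2-fold depend on the settings more than the directions do. Of other genes, 149 were higher and 152 lower in G9a KO. A pseudocount of 0.1 gave 304 and 318, one of 10 gave 17 and 31, a 1.5-fold limit 596 and 571, a 3-fold limit 38 and 48, and the demand that intervals did not overlap 69 and 92. A minimum of 5 FPKM left 69 and 107, and the TPM scale, on which the pseudocount weighs less, gave 223 and 258. Of receptors, 23 were higher and 139 lower. A pseudocount of 1 gave 13 and 78, a minimum of 0.5 FPKM 44 and 309, a minimum of 2 FPKM 15 and 34, and intervals that did not overlap 3 and 47. A 3-fold limit gave 13 higher. Division by mature neuron markers gave 77 higher and 102 lower and moved the sum ratio to 0.932; without the 5 most abundant receptors of either library it was 0.426. Of 242 list medians under alternatives, 220 stayed within 0.2 and none with a size of 0.3 or more changed sign. A pseudocount of 10 moved the medians of the mature neuron (-0.45), transduction (-0.25), Bowman gland (-0.37), microvillar (-0.24), forebrain (0.19), enamel (-0.29), red cell (0.28), protocadherin (-0.076), ganglion (-0.38), meningeal (0.27) and salivary lists (-0.75). A pseudocount of 0.1 moved the red cell (1.04), ganglion (-1.92) and salivary lists (-2.85), the TPM scale the ganglion (-1.59) and salivary lists (-2.44), and a minimum of 5 FPKM the immediate early (0.44), ganglion (-1.46) and salivary lists (-2.57). Without genes at 0 in one library the salivary median was -1.57. Without genes that share a locus entry, an alternative chosen after seeing the data, the enamel median was -0.67 and that of 8 zonal markers -0.19, against 0.05 with them. No paired analysis was possible because each genotype had 1 library. Depth was not given, and at 1 FPKM a receptor rests on about 13 fragments, so differences of low receptors were not resolved.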

Other observations

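Genes of hair and nail varied among the libraries without a common direction between G9a KO and G9a het. The 51 Krtap genes, which code for keratin-associated proteins of hair, summed to 44.2 FPKM in G9a KO and 29.7 FPKM in G9a het. Above 0 were 38 of them in G9a KO and 28 in G9a het. Of the 18 that reached 1 FPKM in one of these libraries, 6 were listed at 0 in G9a het. Those 6 entered only through the G9a KO library, and members at 0 in G9a KO were not counted. The 51 genes summed to 200 FPKM in G9a KO GLP het and 74.8 FPKM in G9a/GLP dKO. A group of 14 hair keratins, chosen after seeing the data, summed to 14.5 FPKM in G9a KO and 17.2 FPKM in G9a het. Krt79, a keratin of hair follicle ducts, was at 4.74 FPKM in G9a KO and 0.583 FPKM in G9a het.

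Of 81 ribosomal protein genes 62 were above 0, 2 were 2-fold higher and 2 lower, with a median of 0.20, and the 84 genes of the list summed to 13204 FPKM in G9a KO and 10858 FPKM in G9a het. Bclaf1, which most cells use, was listed at 0 in G9a KO and at 45.1 FPKM in G9a het, with 40.7 FPKM in G9a KO GLP het. Zzz3 was at 15.3 FPKM in G9a KO and listed at 0 in the other 3 embryonic libraries, and it shares a locus entry with Ak5.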
